A study of Homo sapiens with 8 samples.

Results

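The transcript response to Zalypsis was compared between 2 human cell lines labelled with the names of myeloma lines, MM1S and OPM1. The comparison was a difference of differences: the log2 change of Zalypsis over control in OPM1 minus the same change in MM1S. A positive difference means a higher response in OPM1, and a negative difference a lower one. Of 19775 genes read on the arrays, 6601 were kept because their mean signal was at least 100 in the untreated cells of both lines, so that a gene silent in either line could not enter. Another 1135 genes reached that signal in MM1S controls alone, 913 in OPM1 controls alone and 11126 in neither.

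Zalypsis, derived from a marine compound, binds to DNA and interferes with transcription. DNA damage stabilises the transcription factor p53, which in turn switches on genes such as CDKN1A, an inhibitor of the cell cycle kinases, and MDM2, the ligase that removes p53 again. When polymerase is stopped along DNA, long genes are less often read to their end than short ones, and messenger RNAs that decay fast are the first to be lost. Plasma cells, the cells of origin of myeloma, depend on factors such as IRF4, while B cells before that stage depend on PAX5 and its partners.

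The study had 4 groups of 2 arrays: untreated MM1S, MM1S treated with 5 nM Zalypsis, untreated OPM1 and OPM1 treated with 5 nM Zalypsis. Treated cells were collected when 15 to 20% of them were dying, so the lines were matched on death and the labels give no time of exposure. Each sample was bulk RNA of a cell line, of which 100 ng was labelled, and less of a transcript per cell cannot be told apart from fewer cells that carry it. The labels do not tie the 2 arrays of a group to separate cultures, and every p-value measures a spread between arrays that may be technical.

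The cells labelled OPM1 carried markers of both B cells and plasma cells. SDC1, the plasma cell antigen CD138, had a signal of 9.71 ± 4.45 (SD, n = 2) in untreated cells labelled OPM1 and 3190 ± 351 in untreated MM1S. PAX5, the factor that defines B cells, had a signal of 3220 ± 476 in the former and 6.88 ± 3.75 in the latter. Of 10 B cell markers, 9 reached a signal of 100 in untreated OPM1-labelled cells and 4 did in untreated MM1S. The summed signal of 11 plasma cell markers was 6070 to 6740 on the OPM1-labelled control arrays and 35300 to 37500 on the MM1S control arrays. Of these 11, 9 reached 100 in the OPM1-labelled controls and 8 in the MM1S controls. CD38, a surface antigen of plasma cells, read 489 in the former and 54.2 in the latter. Other plasma cell genes went the other way, with TNFRSF17 at 238 and 5580, SLAMF7 at 101 and 1610, and PRDM1 at 98.6 and 2870. IRF4, XBP1, MZB1 and JCHAIN were also lower in the OPM1-labelled controls than in the MM1S controls. The line is therefore called OPM1-labelled here, and whether it is a myeloma line was not tested. Markers of T and NK cells, and of monocytes, reached 100 in 0 groups. Of the stromal markers 1 did in treated OPM1-labelled cells (COL1A1) and in both MM1S groups (FN1), and of the erythroid markers 1 in both MM1S groups (HBB).

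Array quality also moved with the line and, in OPM1-labelled cells, with treatment. The geometric mean of the poly-A controls, bacterial RNAs spiked in ahead of labelling, ran from 19.69 to 25.65 in MM1S. It was 299.7 and 447.9 on the OPM1-labelled controls and 1862 and 1349 after treatment. The 28S rRNA probe set read 1071 and 1327 on those controls and 11460 and 9325 after treatment. Treated OPM1-labelled arrays had a 75th percentile of 77.2 and 78.31, and the rest 101 to 114.7. The first OPM1-labelled control had a 3' to 5' ratio of 2.258 for GAPDH, against 0.9632 to 1.064 on the other arrays. The rise of the poly-A and 28S readings with treatment in OPM1-labelled cells falls in the same contrast as the differences reported, so the 2 cannot be told apart. The part of these array measures in the differences was not tested.

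Most of the difference lay in a deeper fall of transcripts in OPM1-labelled cells. Changes are on the scale log2(signal + 32), which compresses those of dim genes. Of the 6601 genes, 3660 (55.4%) had a called difference in response (limma, Benjamini-Hochberg adjusted p under 0.05), where 46.6% of all 11865 genes tested were called. The response was higher in OPM1-labelled cells for 929 genes (14.1%, against 15.3% of all genes tested) and lower for 2731 (41.4%, against 31.2%). The median difference was -0.318 over the 6601 genes and -0.135 over all genes tested. The 4 treated-minus-control array differences of each line did not overlap between lines for 4551 genes (68.9%, against 61.3% of all genes tested).

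The responses themselves ran the same way but had unequal size. Their Pearson correlation across the 6601 genes was 0.737 and their Spearman correlation 0.732. The lines share no array, and genes are not independent replicates. The median size of the change was 0.308 in MM1S and 0.807 in OPM1-labelled cells on the log2 scale, and 5361 genes (81.2%) changed further in the latter. In MM1S, 2780 genes were called (990 higher and 1790 lower, where 37.6% of all genes tested were called, 16.4% higher and 21.1% lower). In OPM1-labelled cells 5032 were called (1614 higher and 3418 lower, where 63.9% of all genes tested were called, 25.4% higher and 38.5% lower).

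**Figure D1:**
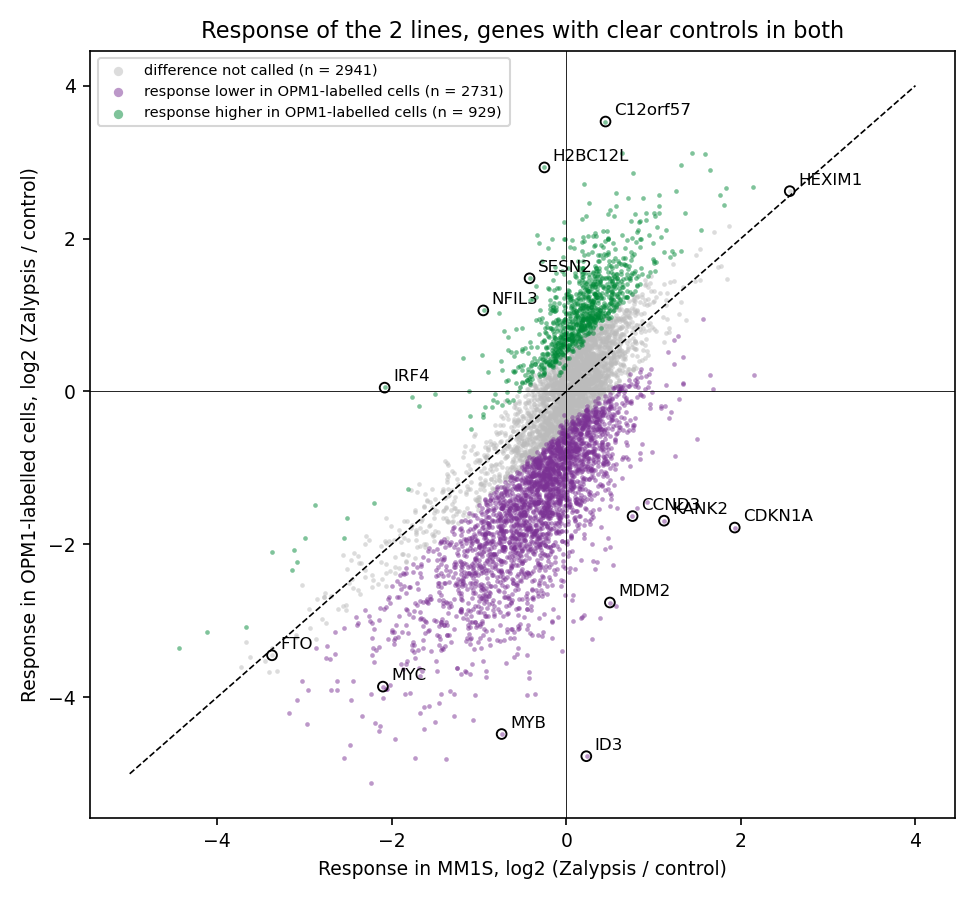
Each point is 1 of the 6601 genes with clear control signals in both lines, placed by its log2 change with Zalypsis in MM1S (horizontal axis) and in OPM1-labelled cells (vertical axis), each from 2 treated and 2 control arrays. Purple and green points are the 2731 genes with a lower and the 929 with a higher response in OPM1-labelled cells, grey points were not called, and the dashed line marks equal responses. The cloud is steeper than the dashed line, with CDKN1A and ID3 far below it and C12orf57 and H2BC12L far above.

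How far the balance leans to lower responses depended on the scaling between arrays. The difference was lower for 74.6% of the called genes on the deposited scale, 61.6% after quantile normalization, 56.7% after scaling each array to its 75th percentile and 100.0% after scaling the OPM1-labelled arrays to their poly-A controls. The median difference of all genes tested was 0.0292, 0.095 and -1.72 under these alternatives. After poly-A scaling 2 genes kept a called higher response, H2BC12L at 1.28 and C12orf57 at 1.13. Each other positive difference given below either turned negative or was not called on that scale.

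Called differences were found among genes with like and with unlike untreated levels. Among 3721 genes whose control signals lay within 1.5-fold of each other, a split chosen after results were seen, 1966 (52.8%) had a called difference, of which 75.8% were lower. Among the 2880 with control signals further apart, 58.8% were called. The median difference was -0.284 in the former and -0.361 in the latter. The control signals that made this split also enter the difference, and the part of untreated levels in it was not tested.

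The called differences took a few forms. The most frequent was a fall in OPM1-labelled cells without a call in MM1S, with 1265 genes (against 14.9% of all genes tested). Next came 1179 genes that fell in both lines and fell further in OPM1-labelled cells (against 11.1%). Their median change was -0.795 in MM1S and -2.07 in OPM1-labelled cells. Genes that rose in OPM1-labelled cells without a call in MM1S numbered 587 (against 8.34%). Another 244 genes rose in both lines and further in OPM1-labelled cells (against 3.47%). A fall in both lines that went further in MM1S was found for 16 genes, and no share over all genes tested was taken for this form. The scale compresses falls to low signals. GALNT10, among these genes, is a case in which a smaller fall in OPM1-labelled cells cannot be read, as given below.

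Opposite responses were few. A rise in MM1S with a fall in OPM1-labelled cells was found for 133 genes, where 1.85% of all genes tested had that pattern. A fall in MM1S with a rise in OPM1-labelled cells was found for 24, where 0.43% did. The count of 157 was 94 without the second MM1S control and 48 without the first treated MM1S array. Quantile normalization gave 240.

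CDKN1A had the largest opposite response. Its signal in MM1S was 1066 and 746.8 on the control arrays and 3644 and 3359 on the treated arrays. In OPM1-labelled cells it was 1087 and 1139 on the control arrays and 297.5 and 307.4 on the treated arrays. The untreated levels of the lines were alike in size, and the treated arrays lay above all controls in MM1S and below all of them in the other line. The log2 change was 1.93 in MM1S and -1.78 in OPM1-labelled cells, a difference of -3.71 ± 0.23 (SE, adjusted p = 6.4e-11, limma).

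KANK2, an adaptor of the cell cortex, moved in the same opposite way. Its signal was 336.7 and 295.5 on the MM1S controls and 758.4 and 693.6 after treatment. It was 537.6 and 447.5 on the OPM1-labelled controls and 119.3 and 140.8 after treatment. Treated and control arrays did not overlap in either line, and the difference was -2.82 ± 0.21 (SE, adjusted p = 1.4e-09, limma).

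The other leading genes of that direction included a DNA repair ligase. LIG4, which seals broken ends in end joining, read 130.9 and 142 in MM1S controls, 326.8 and 274.2 after treatment, 554.9 and 395.1 in OPM1-labelled controls and 282.2 and 231.9 after treatment. Its difference was -1.78 ± 0.23. CABLES2, a partner of cell cycle kinases, changed by 1.25 in MM1S and -0.85 in OPM1-labelled cells. TSPAN13, a tetraspanin of the membrane, had a difference of -2.34, SLC5A3, a transporter of inositol, had -1.73, and PCGF5, a Polycomb group protein, had -1.65, against -0.889 and -0.677 by its other bright probe sets. FAM76A had -2.36, and -1.86 without the first OPM1-labelled control.

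NFIL3, a basic leucine zipper repressor, led the reverse pattern. In MM1S its signal was 1965 and 1665 on control arrays and 1027 and 830.1 on treated arrays. In OPM1-labelled cells it was 177.3 and 215.2 on control arrays and 417.7 and 467.5 on treated arrays. The untreated lines lay far apart, and treatment brought their levels closer, with no overlap of treated and control arrays in either. The difference was 2.01 ± 0.23 (SE, adjusted p = 3.5e-07, limma), and on the poly-A scale it was not called.

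CSNK1E, a casein kinase of the circadian clock and Wnt signalling, showed that pattern with a difference of 1.80 ± 0.21, against 1.0 by its other bright probe set. Its signal was 533.4 and 446.7, then 274.4 and 269.5, in MM1S, and 135.2 and 153.6, then 286.3 and 369.4, in OPM1-labelled cells. RSBN1 had a difference of 1.5, SUPV3L1, a mitochondrial RNA helicase, 1.39, and FEM1B, a substrate receptor of a ubiquitin ligase, 1.38. The other bright probe sets of RSBN1 gave 0.49 to 1.22 and those of FEM1B 0.727 and 0.992. MRPL54, a mitochondrial ribosomal protein, had 1.20 and CENPH, a kinetochore protein, 1.15. ANKRD13C had 1.09, which was -0.15 and not called without shared probe sets, whose suffix marks them as matching several transcripts or genes. CSNK1E and these 6 genes were below 0 on the poly-A scale, from -0.03 to -0.73.

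The upstream sequences of the leading genes of either direction are shown because these genes moved oppositely in the 2 lines. Each is the 250 bases before the annotated start in RefSeq (GRCh38.p14), 5' to 3' on the gene's strand, with matches to GGGCGG, the GC box bound by SP factors, in capitals.
CDKN1A, chr6:36678464-36678713, plus strand: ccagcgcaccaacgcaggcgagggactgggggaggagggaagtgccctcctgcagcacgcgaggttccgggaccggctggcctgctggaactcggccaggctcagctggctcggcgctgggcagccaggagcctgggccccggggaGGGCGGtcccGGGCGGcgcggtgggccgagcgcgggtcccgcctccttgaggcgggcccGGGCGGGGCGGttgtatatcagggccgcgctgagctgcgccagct
KANK2, chr19:11197546-11197795, minus strand: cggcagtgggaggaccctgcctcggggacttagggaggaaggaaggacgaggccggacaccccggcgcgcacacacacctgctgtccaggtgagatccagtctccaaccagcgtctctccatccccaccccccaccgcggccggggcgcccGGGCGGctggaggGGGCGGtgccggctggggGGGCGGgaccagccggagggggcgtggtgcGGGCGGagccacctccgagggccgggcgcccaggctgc
NFIL3, chr9:91424627-91424876, minus strand: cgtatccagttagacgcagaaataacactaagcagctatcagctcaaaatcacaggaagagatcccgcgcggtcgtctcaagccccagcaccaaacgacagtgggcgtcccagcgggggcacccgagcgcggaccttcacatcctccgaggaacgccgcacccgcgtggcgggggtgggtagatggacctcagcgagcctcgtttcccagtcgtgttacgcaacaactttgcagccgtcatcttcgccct
CSNK1E, chr22:38318085-38318334, minus strand: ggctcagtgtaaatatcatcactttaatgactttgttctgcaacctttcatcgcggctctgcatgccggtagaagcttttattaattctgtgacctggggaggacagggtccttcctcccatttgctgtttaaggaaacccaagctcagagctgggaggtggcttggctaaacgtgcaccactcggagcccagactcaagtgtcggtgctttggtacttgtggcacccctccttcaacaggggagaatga
CDKN1A and KANK2 each held 4 GC boxes, some overlapping in CDKN1A, while NFIL3 and CSNK1E held 0. None of the 4 held the other motifs searched, all on both strands. These were TATAAA, the TATA box that sets the start of transcription in some genes. They also included CCAAT, the site of the trimeric factor NF-Y, and CACGTG, the E-box to which MYC and its partners bind. The longest was TGACGTCA, the response element of factors activated by cAMP. The last was TGACTCA, the site of JUN and FOS dimers. A GC box was found in 42.3% of all 27305 RefSeq promoters and in 69.9% of the 5609 promoters matched to the 6601 genes. It was found in 76.6% of 111 matched promoters of the genes that rose in MM1S alone and fell in the other line, and in 61.9% of 21 of the reverse pattern. A match describes the letters only.

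**Figure D2:**
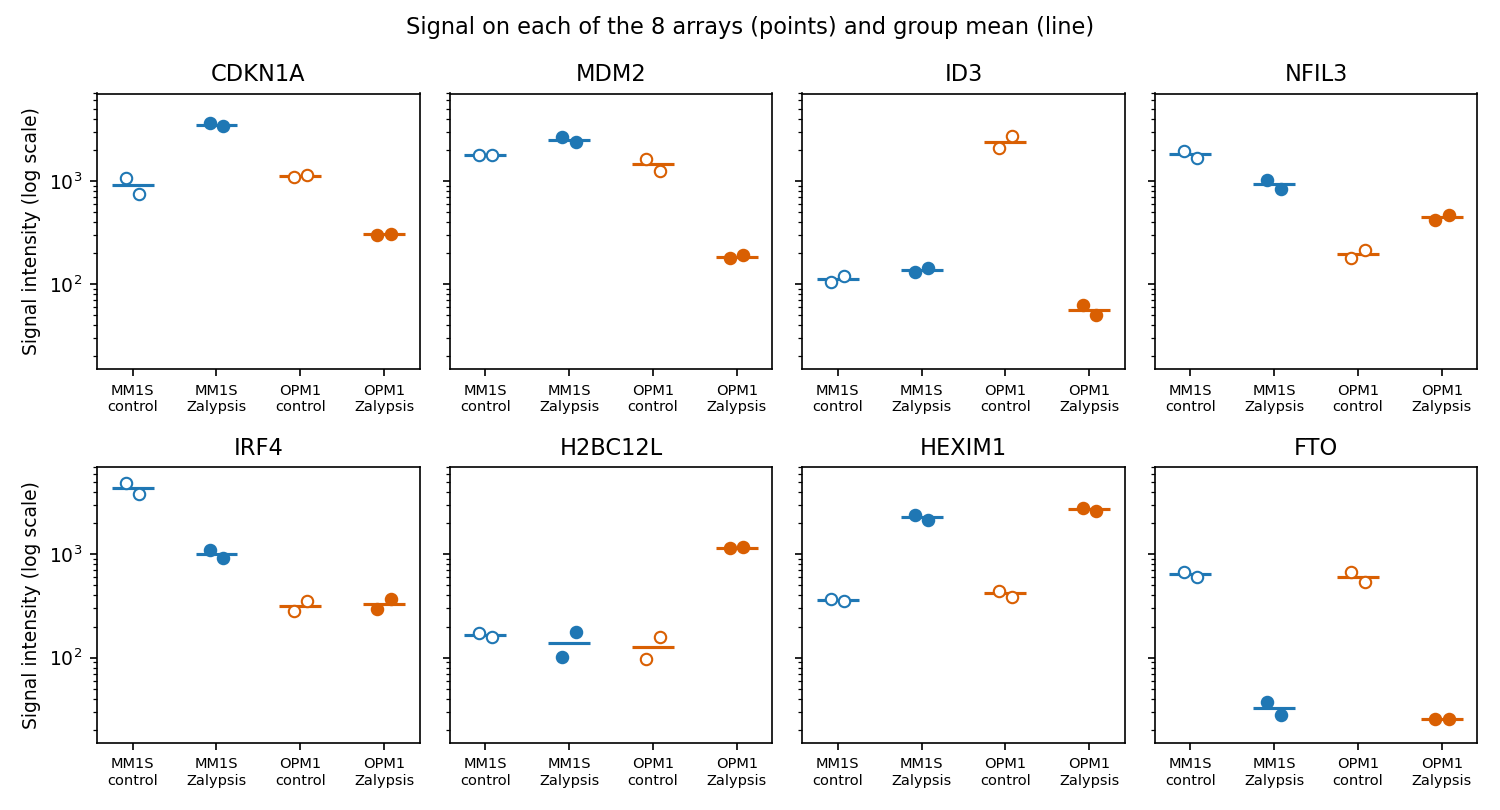
Signal intensity on each of the 8 arrays on a log axis, for 8 genes; points are arrays (open for control, filled for Zalypsis, blue for MM1S and orange for OPM1-labelled cells) and lines are means of 2 arrays. CDKN1A moved up in MM1S and down in OPM1-labelled cells, NFIL3 moved the other way, and HEXIM1 and FTO moved alike in both lines.

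The largest difference of all was in ID3, an inhibitor of the E-protein transcription factors that steer B-lineage cells. Its signal was 103.9 and 121.2 on MM1S controls and 131.7 and 143.7 after treatment, a change of 0.23 that was not called. It was 2067 and 2731 on OPM1-labelled controls and 62.77 and 50.21 after treatment. The OPM1-labelled cells went from far above MM1S to below it, with a difference of -5.0 ± 0.22 (SE, adjusted p = 5.5e-13, limma). ID2, of the same family, went the other way with a difference of 2.47 ± 0.21. Its signal was 458 and 398.2, then 695.7 and 675.8, in MM1S, and 170.8 and 208.6, then 1913 and 1857, in OPM1-labelled cells.

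The other largest lower responses included the factors MYB and IKZF1 and the B cell protein FCRLA. MYB, a factor of blood progenitors, read 708.1 and 546.8 in MM1S controls, 373.2 and 346.7 after treatment, 3359 and 3282 in OPM1-labelled controls and 134.3 and 103.6 after treatment. It fell in both lines, with a difference of -3.74 ± 0.23. IKZF1, the Ikaros factor of lymphoid cells, read 1707 and 1674, then 1680 and 1580, in MM1S, and 1150 and 1025, then 66.16 and 83.54, in OPM1-labelled cells. Its change in MM1S was -0.05 and not called, and its difference was -3.34. Its other bright probe sets gave -1.79 to -0.139. FCRLA, an intracellular relative of Fc receptors, had a difference of -3.36.

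The remaining genes of that end had varied roles. APP, the amyloid precursor protein, read 2923 and 3031 in MM1S controls, 2229 and 2117 after treatment, 1602 and 1358 in OPM1-labelled controls and 73.29 and 55.36 after treatment. Its difference was -3.53, but its other bright probe sets gave -1.11 and -0.474. STAMBPL1, a deubiquitinase, had -3.60. PRPS2, which makes the sugar precursor of nucleotides, had -3.53, against -0.893 by its other bright probe set. PIP4K2A, a phosphoinositide kinase, had -3.43, against -1.20 by its other bright probe set. ZC3HAV1, an antiviral RNA-binding protein, had -3.37.

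The largest higher response was in H2BC12L, a gene of the histone H2B family. Its signal was 175.1 and 157.6 on MM1S controls, 101.5 and 175.2 after treatment, 96.03 and 159.4 on OPM1-labelled controls and 1140 and 1175 after treatment. The treated OPM1-labelled arrays alone stood high, and the other arrays overlapped. The difference was 3.18 ± 0.27 (SE, adjusted p = 5.6e-09, limma). H2B genes are near-identical, and the reading may mix several of them. C12orf57 read 3079 and 2708, then 3995 and 3902, in MM1S, and 136.1 and 182.1, then 2116 and 2207, in OPM1-labelled cells. Its difference was 3.08 ± 0.21.

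KLF6, an early response zinc finger factor, stayed without a call in MM1S and rose in OPM1-labelled cells. It read 1484 and 1198 in MM1S controls, 1057 and 1046 after treatment, 170.3 and 154.9 in OPM1-labelled controls and 872.8 and 687.9 after treatment. Its difference was 2.39 ± 0.23, with 2.12 to 2.63 by its 3 other bright probe sets. TMEM167B had 2.26. TSC22D3, a leucine zipper protein induced by glucocorticoids, had 2.50, which was -0.29 and not called without shared probe sets.

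Several of the high differences were unsteady. In PSMB4, a proteasome subunit, the 2 other bright probe sets gave -3.70 and 3.64 against 2.23. CYBA, a subunit of the NADPH oxidase, had 2.20, which was 0.19 and not called without shared probe sets. The first OPM1-labelled control read CYBA at 424 and the second at 1105. EIF5A, a translation factor, read 498.3 on the first and 1779 on the second. Its difference of 2.17 was 1.29 without the first and 3.06 without the second.

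IRF4, the factor on which plasma cells depend, differed through MM1S. Its signal was 4897 and 3869 on MM1S controls and 1102 and 922.9 after treatment. In OPM1-labelled cells it was 285.2 and 350.9 on controls and 295.4 and 366.8 after treatment. It fell by 2.08 on the log2 scale in MM1S, and its change of 0.05 in OPM1-labelled cells was not called, with a difference of 2.13 ± 0.24 (SE, adjusted p = 2.7e-07, limma). Treated MM1S stayed above all OPM1-labelled arrays. JUN and ATF3, stress factors of the AP-1 kind, were not among the 6601 genes because their OPM1-labelled controls lay under a signal of 100.

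Among p53 targets, the common pattern was a rise in MM1S that was smaller, missing or turned around in OPM1-labelled cells. Of 20 measured targets (of 40 listed), 12 (60.0%) had a lower and 3 (15.0%) a higher response in OPM1-labelled cells. For this and each list below, the shares over all 6601 genes were 41.4% lower and 14.1% higher. For calls within a line, the 6601 genes had 990 higher and 1790 lower in MM1S. They had 1614 higher and 3418 lower in OPM1-labelled cells. The median response of the 20 targets was 0.88 in MM1S and -0.20 in OPM1-labelled cells. MM1S called 13 higher and 3 lower, and OPM1-labelled cells called 7 higher and 8 lower. Without shared probe sets, 7 of 12 were lower and 1 higher, and scaling to the 75th percentile moved the median difference from -0.72 to -0.447.

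MDM2, which marks p53 for destruction, followed CDKN1A. It read 1770 and 1760 on MM1S controls and 2634 and 2385 after treatment. In OPM1-labelled cells it read 1642 and 1254 on controls and 177.8 and 191.4 after treatment. The controls were alike in size and the treated arrays lay far apart, above the controls in MM1S and below them in the other line, with a difference of -3.26 ± 0.22 (SE, adjusted p = 1.8e-10, limma). Its 4 other bright probe sets gave -4.33 to -2.15.

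Other feedback and repair targets had a lower response in OPM1-labelled cells too. RRM2B, the p53-inducible ribonucleotide reductase subunit, changed by 0.51 in MM1S and -1.40 in OPM1-labelled cells. PPM1D, the phosphatase WIP1 that quenches the damage signal, changed by 1.18 and -0.34, and TIGAR, a regulator of glycolysis, by 1.65 and 0.22. TNFRSF10B, a receptor of the death ligand TRAIL, changed by 1.13 and -0.19, and CCNG1 by 0.95 and -0.21.

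Some targets did not share the pattern. GADD45A, a growth arrest gene, changed by 1.31 in MM1S and 1.17 in OPM1-labelled cells, PMAIP1, the death effector NOXA, by 1.53 and 1.46, and TRIAP1 by 1.49 and 1.78, with 0 calls of a difference among the 3. The 3 with a higher response were SESN2, a stress-induced inhibitor of mTORC1 (1.90), CCNG2 (1.79) and GADD45B (1.09). SESN2 was at -0.05 on the poly-A scale. The median gene span, from start to end in the annotation, was 38.7 kb for the 12 lower targets, 12.9 kb for the 3 higher and 4.31 kb for the 5 not called.

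The response of genes around p53 itself was lower in OPM1-labelled cells for 10 of 13 (76.9%) and higher for 1 (7.69%), with a median difference of -1.12. MM1S called 8 of them lower and 2 higher, MDM2 and PPM1D (also among the p53 targets), and OPM1-labelled cells called 10 lower. They included USP7, the deubiquitinase of MDM2 (-1.60), the acetyltransferases CREBBP (-1.19) and EP300 (-1.14), and ATR, a damage kinase (-1.12). By median span the lower genes, at 68.9 kb, were shorter than those not called, at 101 kb. MDM4, a partner of MDM2, had -1.31, but -0.39 without shared probe sets and -0.26 as a mean of its probe sets, both not called. KAT5, an acetyltransferase, was the 1 higher at 0.52 with an adjusted p of 0.0439, and lost its call without either OPM1-labelled control, the second treated OPM1-labelled array or the first array of either MM1S group.

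Regulators of entry into S phase mostly had a lower response in OPM1-labelled cells. Of 14 kinase inhibitors, cyclins and their partners, CDKN1A included, 10 (71.4%) had a lower response there and 0 a higher one. Their median difference was -0.84. That median was -0.551 with 75th percentile scaling and -0.423 with the mean of probe sets. CCND3, cyclin D3, read 546 and 406.8 in MM1S controls, 862.2 and 776.6 after treatment, 2638 and 2922 in OPM1-labelled controls and 948.9 and 803.6 after treatment. It rose by 0.76 and fell by 1.63 on the log2 scale. CCNE2, a cyclin of S phase entry, rose by 1.29 in MM1S and was -0.10 and not called in the other line. RB1, the retinoblastoma brake, had a difference of -2.59 and CDK6, a cyclin D kinase, -2.16, and both fell in both lines. The other bright probe sets of CDK6 gave -2.12 and -1.30. CDK4 was at -0.06 and -0.05.

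Early response genes were called higher for 5 of 11 in MM1S and for 7 in OPM1-labelled cells. Of all 6601 genes, 990 were called higher in MM1S and 1614 in OPM1-labelled cells. Of 11 measured (of 36 listed), 7 had no called difference, 3 (27.3%) had a higher response in OPM1-labelled cells, KLF6, BTG1 (1.27) and TOB1 (0.83), and 1 (9.09%) a lower, MYC. The lower count was 3 without the second OPM1-labelled control and 2 without the first MM1S control or with quantile normalization. The higher count was 5 with 75th percentile scaling. The median difference of 0.21 was 0.504 with that scaling, 0.091 without the second treated MM1S array, 0.0306 without the first treated OPM1-labelled array and -1.74 on the poly-A scale. BTG1, an antiproliferative gene, was at 0.06 without shared probe sets and 0.747 by its other bright probe set. TOB1, of the same family, was at -0.37 as a mean of its probe sets and -1.57 by its other bright probe set. IER2 changed by 1.77 in MM1S and 1.64 in OPM1-labelled cells, and IER5 by 1.53 and 1.86. MYC, the growth factor-responsive oncogene, read 2981 and 3063 in MM1S controls, 660.4 and 696.7 after treatment, 3479 and 5475 in OPM1-labelled controls and 273.2 and 268.4 after treatment. It fell in both lines and further in OPM1-labelled cells, by a difference of -1.76 ± 0.24 (SE, adjusted p = 3.8e-06, limma).

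The factors of the B lineage had a lower response in OPM1-labelled cells for all 9 (100.0%) that were measured in both lines, of 16 listed. MM1S called 7 lower and 1 higher, POU2F2 (0.54), and OPM1-labelled cells called 9 lower. Their median response was -0.68 in MM1S and -3.10 in OPM1-labelled cells, a median difference of -2.42, which was -1.14 with the mean of probe sets. Besides MYB and IKZF1 they included POU2F2, the octamer factor of B cells (-2.81, and -2.89 to -1.46 by its other bright probe sets), IKZF3, the Aiolos factor (-2.74), POU2AF1, a coactivator of octamer factors (-2.42), and LEF1 (-2.05). The OPM1-labelled controls carried the B cell markers described above. The median span of the 9 genes was 107 kb, and of all genes of 100 to 300 kb, 71.1% had a lower response. The parts of lineage and of span in these differences were not tested.

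Among 9 plasma cell factors, 6 (66.7%) had a lower response in OPM1-labelled cells, and IRF4 was the 1 higher (11.1%). IKZF1, IKZF3 and POU2AF1, all lower, were also counted among the B-lineage factors above. The median difference of -1.31 was -0.628 with the mean of probe sets, and 2 were higher with quantile normalization or 75th percentile scaling. XBP1, the factor of secretory capacity, changed by -0.91 in MM1S and -2.22 in OPM1-labelled cells. MEF2C had a difference of -1.03 and KLF13 of -1.75. CRBN, the substrate receptor through which the thalidomide class of drugs acts, was at -0.20 and 0.12 with no called difference. Of 5 ID and E-protein factors, 3 (60.0%) had a lower response, ID3, TCF4 (-1.70) and TCF3 (-1.69), and 1 (20.0%) a higher one, ID2. TCF12 changed by -3.10 and -3.19. The other bright probe sets gave -1.81 to -0.326 for TCF4 and -2.33 to -0.388 for TCF3, and TCF3 was at -0.14 and not called without shared probe sets. The median difference of the 5 was -1.69, but -0.686 with the mean of probe sets and -0.137 over the 3 read without shared probe sets.

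Of 54 replication genes measured, 33 (61.1%) had a lower response in OPM1-labelled cells, 2 (3.70%) a higher one and 19 no called difference, with a median response of 0.09 in MM1S and -0.76 in OPM1-labelled cells. MM1S called 12 higher and 7 lower, and OPM1-labelled cells 9 higher and 35 lower. CDC45, a part of the replicative helicase, changed by 0.08 and -2.66, ORC3, of the origin recognition complex, by -0.32 and -2.64, and DNMT1, the maintenance methyltransferase, by -0.56 and -2.53. UHRF1, which guides DNMT1 to new DNA, had a difference of -1.96. The helicase core was uneven, with MCM3 at -1.93, MCM6 at -1.14 and MCM4 at -1.10, and no called difference for MCM2, MCM5 and MCM7. The 2 higher were ASF1B, a histone chaperone (1.24, adjusted p = 0.0493), and POLE3 (0.87). The median span was 44.7 kb for the 33 lower, 10.3 kb for the 2 higher and 24.7 kb for the 19 not called. Scaling to the 75th percentile gave 27 lower and 6 higher and a median difference of -0.557 in place of -0.845. The higher count was 1 without the first MM1S control, the second treated MM1S array or either treated OPM1-labelled array.

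Genes of mitosis were split. Of 36 measured, 8 (22.2%) had a higher and 6 (16.7%) a lower response in OPM1-labelled cells, with a median difference of 0.05. UBE2C, the ubiquitin-conjugating enzyme of the anaphase-promoting complex, had 1.69, BIRC5, survivin, 1.17, CDC20, an activator of that complex, 1.14, and CDCA8, of the chromosomal passenger complex, 0.95. The lower ones were led by BUB1B, a checkpoint kinase (-2.55), and KIF11, a spindle motor (-1.94). Quantile normalization and 75th percentile scaling each gave 14 higher and 6 lower. The higher count was 5 without the first MM1S control, the second treated MM1S array or the second treated OPM1-labelled array. The median turned below 0 without the first MM1S control (-0.0403), the second treated MM1S array (-0.0289) or the second OPM1-labelled control (-0.0143), and was -1.94 on the poly-A scale. The median span was 11.2 kb for the 8 higher and 50.3 kb for the 6 lower.

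Of 12 genes that mend double-strand breaks by end joining, 9 (75%) had a lower response in OPM1-labelled cells and 0 a higher one. The median difference was -1.01, and -0.567 with the mean of probe sets. DCLRE1C, the nuclease Artemis, changed by 0.48 in MM1S and -1.91 in OPM1-labelled cells, a difference of -2.39 against -0.733 and -0.532 by its other bright probe sets. PRKDC, the kinase that holds broken ends, changed by -0.97 and -2.70. XRCC5, the Ku80 subunit, had -1.70, but -0.19 and no call without shared probe sets. XRCC4 changed by -2.16 and -2.52 without a called difference. By median span the lower genes, at 57.1 kb, were shorter than those not called, at 115 kb.

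In homologous recombination and the Fanconi pathway, 13 of 21 (61.9%) were lower and 1 (4.76%) higher, FANCF (0.73). FANCL, a ubiquitin ligase of the pathway, had a difference of -2.13, BLM, a helicase, -2.01, FANCI -1.76 and BRCA1 -1.57. The other bright probe sets of FANCI gave -1.28 and -0.315. MRE11, a nuclease of the end-binding complex, had -1.65, but -0.05 and no call without shared probe sets. RAD50, its partner, was at 0.42 and not called. Quantile normalization gave 3 higher and 13 lower.

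Of 53 genes of the nuclear pore and its transport receptors, 38 (71.7%) had a lower and 3 (5.66%) a higher response in OPM1-labelled cells. The median difference was -1.20, and -0.741 with the mean of probe sets. NDC1, an anchor of the pore in the membrane, changed by -1.73 in MM1S and -4.80 in OPM1-labelled cells, a difference of -3.07 against -0.912 by its other bright probe set. CSE1L, which returns importin alpha to the cytoplasm, changed by -0.31 and -2.96, and NUP210 by -0.27 and -2.63. The other bright probe sets of NUP210 gave -1.57 to -1.02, against its difference of -2.37. XPO1, the main protein exporter, had a difference of -1.72. The 3 higher were RANBP1 (1.26) and KPNA2 (0.43), partners of Ran and of cargo, and SEC13 (1.04). Scaling to the 75th percentile gave 32 lower and 6 higher, and quantile normalization 35 and 5. The 38 lower genes had a median span of 68.3 kb and the 3 higher one of 11.3 kb.

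Cohesin and condensin genes had a lower response in OPM1-labelled cells for 16 of 23 (69.6%) and a higher one for 3 (13.0%). The median difference was -1.0. The median span was 74.4 kb for the 16 lower and 22.9 kb for the 3 higher. ESCO1, an acetyltransferase of cohesin, had -2.46, PDS5A -2.13 and STAG2 -2.06. SMC3, a core ring subunit, had -2.04, which was 0.10 and not called without shared probe sets, and -1.48 to 0.102 by its other bright probe sets. STAG1, another ring subunit, fell in both lines and further in MM1S, by -4.11 against -3.14. The other 2 with a higher difference were CDCA5, sororin (1.16), and NCAPH2 (1.01).

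Of 50 chromatin remodelling genes, 28 fell in MM1S and 39 in OPM1-labelled cells, where 1790 and 3418 of all 6601 genes did. Of the 50 measured, 29 (58.0%) had a lower response and 0 a higher one, with a median response of -0.57 in MM1S and -1.49 in OPM1-labelled cells. The median difference of -0.69 was -0.364 with the mean of probe sets. BAZ1A, a subunit of nucleosome-sliding complexes, had a difference of -2.09, CHD7 -1.85, and SUZ12 and EZH2, both of the Polycomb repressive complex, -1.92 and -1.79. Other bright probe sets gave -1.12 for CHD7 and -0.68 for SUZ12. Quantile normalization gave 27 lower and 4 higher, 75th percentile scaling 25 and 3, and the mean of probe sets 24 and 2. Without shared probe sets, 19 of 33 were lower. The median span was 109 kb for the 29 lower genes and 68.6 kb for those not called. KDM4C, a long demethylase gene of 455 kb, changed by -2.43 and -2.11 without a called difference.

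The transcription machinery was split. Of 30 RNA polymerase II subunits and general factors, 8 (26.7%) had a higher and 7 (23.3%) a lower response in OPM1-labelled cells, with a median difference of -0.05. The higher ones included the subunits POLR2L (1.33), POLR2C (1.04) and POLR2K (0.88), with TAF10 (1.34), a subunit of TFIID, and they fell below 0 or lost their calls on the poly-A scale. The lower ones included TAF4 (-1.90), TAF2 (-1.38, but -0.115 by its other bright probe set) and GTF2A1 (-1.53). POLR2A, the largest subunit, rose by 1.74 and 1.63 with no called difference. The median turned above 0 with quantile normalization (0.123), 75th percentile scaling (0.243) and the mean of probe sets (0.0977), and without the second MM1S control (0.062) or the first treated MM1S array (0.0243). It was -0.128 without the first MM1S control and -0.133, with 5 higher, without the second treated MM1S array. The 8 higher genes had a median span of 5.46 kb and the 7 lower one of 45.9 kb.

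Mitochondrial ribosomal proteins also split. Of 75 measured, 24 (32%) had a higher and 18 (24.0%) a lower response in OPM1-labelled cells, with a median difference of 0.18 that was -1.84 on the poly-A scale. MRPL44 was the highest at 1.85, followed by MRPS12 (1.37) and MRPL41 (1.34). MRPS6 (-2.40), MRPS31 (-2.20) and MRPL1 (-1.67) were the lowest. The 24 higher genes had a median span of 5.86 kb and the 18 lower of 34.5 kb. Scaling to the 75th percentile gave 34 higher and 11 lower, and without shared probe sets 9 of 40 were higher and 11 lower. Without the first MM1S control the balance turned, with 16 higher, 20 lower and a median of 0.0286, and without the second treated MM1S array 17 were higher and 18 lower. The median was 0.068 without the first OPM1-labelled control.

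Genes of antigen presentation had a higher response in OPM1-labelled cells for 8 of 17 (47.1%) and a lower one for 3 (17.6%), with a median difference of 0.40 that was -1.69 on the poly-A scale. The higher count was 5 without the first treated OPM1-labelled array and 13 with 75th percentile scaling, and the median was 0.236 without the first MM1S control. HLA-DRA, a class II chain, had 1.32 and lost its call as a mean of probe sets (adjusted p = 0.0582). HLA-E, a class I molecule, had 1.08 and CD74, the invariant chain, 0.40. Among HLA genes, probe sets can read near-identical paralogs. The median span was 8.74 kb for the 8 higher and 6.61 kb for the 3 lower, against the order seen in other lists. The lower ones were RFXAP (-2.32) and RFX5 (-1.22, and -0.338 by its other bright probe set), factors that switch on class II genes, and HLA-DMA (-0.61).

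Genes of the amino acid response differed in both directions, 5 higher and 5 lower of 22 (22.7% each). ATF4, the factor that drives the response, fell by 1.5 on the log2 scale in MM1S and was -0.03 and not called in OPM1-labelled cells. CEBPB, a partner of ATF4, changed by -1.18 and 0.44, a difference of 1.62. SLC3A2, a chain of amino acid exchangers, had 1.25. SLC7A1 (-1.43, and -0.746 by its other bright probe set), a transporter of basic amino acids, and ALDH18A1 (-1.32), of proline synthesis, were lower. PSAT1, of serine synthesis, changed by -2.03 and -1.95 with no called difference. Quantile normalization gave 12 higher and 4 lower, and leaving out the second MM1S control 9 and 4. The median difference of 0.146 ran from 0.0585 without the first MM1S control to 0.449 with 75th percentile scaling. ATF4, CEBPB and SESN2 were below 0 on the poly-A scale.

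Gene span ordered the differences across the whole set. The median difference was 0.234 for 593 genes under 5 kb, 0.168 for 713 genes of 5 to 10 kb and -0.0867 for 1995 genes of 10 to 30 kb. It was -0.635 for 2313 genes of 30 to 100 kb and -0.899 for 871 genes of 100 to 300 kb. Of genes under 5 kb, 34.7% had a higher and 15.5% a lower response in OPM1-labelled cells. Of genes of 100 to 300 kb, 2.18% had a higher and 71.1% a lower one.

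Both lines showed a fall with span, at different lengths. For genes of 30 to 100 kb the median response was -0.187 in MM1S and -0.861 in OPM1-labelled cells, and for genes of 100 to 300 kb it was -0.992 and -1.98. Above 300 kb the lines came close again, with -2.08 and -2.37 over 114 genes and a median difference of -0.177. In that longest class 55.3% of genes had a treated signal under 50 in MM1S and 68.4% in OPM1-labelled cells. Across 6599 genes with a span, the Spearman correlation of span was -0.465 with the difference, -0.586 with the MM1S response and -0.640 with the OPM1-labelled response, as a description over genes that share arrays.

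The order by span was kept up to 300 kb by the scalings that moved the level. With quantile normalization the medians ran 0.383, 0.307, 0.095, -0.427 and -0.817 over these 5 classes. With poly-A scaling they ran -1.73, -1.82, -2.0, -2.45 and -2.45. Without the first OPM1-labelled control, the array with the raised 3' to 5' ratio, the shortest class had 0.159, the 5 to 10 kb class 0.0925 and the 100 to 300 kb class -0.869. Without the first MM1S control the 2 shortest classes had 0.135 and 0.0364, and without the second treated MM1S array 0.166 and 0.0765. The mean of probe sets gave -0.416 for 30 to 100 kb and -0.499 for 100 to 300 kb. The 10 to 30 kb class stayed near 0, from -0.179 without the first MM1S control to 0.00173 without the second, among alternatives that leave out 1 array.

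**Figure D3:**
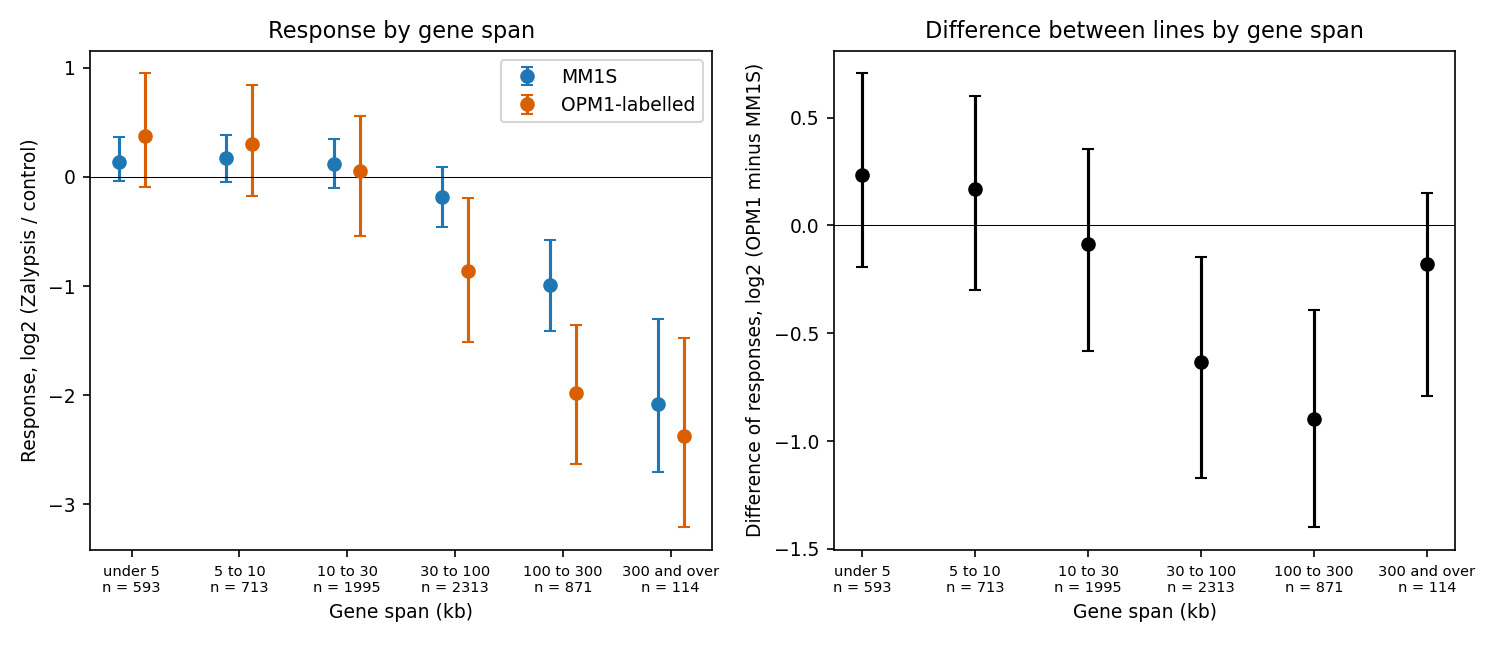
Median log2 response in each line (left, blue for MM1S and orange for OPM1-labelled cells) and median difference of responses (right), by gene span in kb, with bars from the lower to the upper quartile over the genes of a class. The OPM1-labelled medians drop below those of MM1S from the 10 to 30 kb class on, and the difference is deepest at -0.899 for 100 to 300 kb.

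The forms of difference had different spans as well. The 929 genes with a higher response had a median span of 11.9 kb, the 2731 with a lower response 51.7 kb and the 2941 without a call 24.0 kb. Genes that fell in both lines and further in OPM1-labelled cells had a median of 99.4 kb. The 16 that fell further in MM1S on the scale used had 339 kb. Above 300 kb, 68.4% of genes had a treated OPM1-labelled signal under 50, and the scale compresses changes of dim genes. The opposite responders were not long, with 23.8 kb for the 133 and 21.2 kb for the 24. CDKN1A spans 10.9 kb and ID3 1.58 kb, so that these differences lay outside the order by span.

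Some genes responded alike in both lines. For 445 genes the 95% interval of the difference lay within 0.5 of 0 on the log2 scale. No share over all genes tested was taken for this count or for the counts of genes that rose or fell alike. Of these, 5 rose by at least 1 in both lines: HEXIM1, PMAIP1, RUSC1, SC5D and E2F8. HEXIM1, which holds the elongation kinase P-TEFb inactive, read 369.5 and 350.5 on MM1S controls, 2403 and 2150 after treatment, 446.4 and 389.2 on OPM1-labelled controls and 2809 and 2653 after treatment. Its difference was 0.06 with an interval of -0.36 to 0.49, but -1.98 on the poly-A scale. PMAIP1 rose by 1.53 and 1.46 from unequal levels, 546.5 and 496.8 in MM1S controls and 2160 and 2903 in OPM1-labelled controls. On the poly-A scale PMAIP1 (-2.16), RUSC1 (-1.99) and E2F8 (-1.90) had called lower responses in OPM1-labelled cells.

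Another 34 genes fell by at least 1 in both lines with such an interval, at a median span of 226 kb. FTO, an RNA demethylase of 418 kb, read 677.2 and 600.5 on MM1S controls, 37.48 and 28.03 after treatment, 672.1 and 534.6 on OPM1-labelled controls and 25.59 and 25.76 after treatment. Its difference was -0.08 with an interval of -0.49 to 0.33, but -1.47 and called on the poly-A scale (limma, adjusted p = 0.000155). POLA1, the catalytic subunit of the polymerase that starts new strands, changed by -2.70 and -2.67, and UBE2E2, a ubiquitin-conjugating enzyme, by -3.37 and -3.36. Treated signals of these genes lay near or under the 32 added before taking logs, which compresses differences there. RSRC1, for which the treated arrays read 17.04 and 17.37 in MM1S and 8.92 and 5.06 in OPM1-labelled cells, is such a case.

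Genes at the edge of the signal limit behaved variously. CST3 and GALNT10 lay just above it. CST3, the protease inhibitor cystatin C, had a difference of 0.44 that was not called, but 0.78 with quantile normalization, 0.68 with 75th percentile scaling and 0.73 without the second MM1S control, each called. GALNT10, a glycosyltransferase, had 0.85, but 0.59 and no call with 16 added before taking logs (limma, adjusted p = 0.06). Its mean signal fell from 453 to 53.4 in MM1S and from 100 to 10.2 in OPM1-labelled cells. The treated OPM1-labelled signals lay where the number added before taking logs compresses changes, so a smaller fall in that line cannot be read from this difference. SLC25A51, a mitochondrial carrier (-0.53), and POLG2, a subunit of the mitochondrial DNA polymerase (-0.84), lay just below it and were left out.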

How the data were processed

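Per the series' design text, the authors analysed the arrays (HG-U133 Plus 2.0) with dChip. The deposited values are linear intensity values per probe set. Its version is not given in the sources used here, nor is its normalization. The sample protocols name a GeneChip 2-cycle kit and the design text an Enzo kit. Depth does not apply, and the 8 arrays limit the precision.

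Values were kept as deposited and turned into log2(value + 32), which understates changes of dim genes. Of 54675 probe sets, 41091 had 1 gene symbol. The brightest probe set stood for each of 19775 genes, and the dimmest 40% (below 27.3) were left out, so 11865 were tested. All 6601 genes with clear controls passed. limma 3.58.1 (R 4.3.3, eBayes with trend) was fitted to all 8 arrays with 1 mean per group (4 residual and 17 prior degrees of freedom), and p-values were adjusted over all 11865 genes. Spans, promoters and updated symbols came from RefSeq (GRCh38.p14).

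Genes named were a few of interest, the 10 largest differences each way, up to 8 opposite responders each way, at most 4 called members per described list, up to 10 alike responders each way and the nearest 2 on either side of the signal limit. Others in the lists are named after their values were seen. The members and lists were chosen with earlier results of these data known. In 10 simulated draws, 200 of 11865 genes were changed. A difference of 0.5 was called in 16.4%, of 1 in 89.1% and of 2 in 100%, and 5.74% of calls were false. The draws had independent noise around equal group means, without effects shared across an array. Far fewer genes changed in them than the 46.6% called in the data, so these shares do not measure power or false calls here. The alternatives were other pseudocounts, scalings, filters, probe set rules, fits and omitted arrays.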

Additional observations from a re-analysis of the deposited data

Results flagged for a closer look

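The responses of the lines differed by the test of the difference itself (limma, adjusted over all 11865 genes) for 3660 genes with clear controls in both lines, and 157 were called in opposite directions. Those with a lower response in OPM1-labelled cells by that test included ID3 (-5.0), MYB (-3.74), CDKN1A (-3.71), STAMBPL1 (-3.60), PRPS2 (-3.53), APP (-3.53), PIP4K2A (-3.43), ZC3HAV1 (-3.37), FCRLA (-3.36), IKZF1 (-3.34), MDM2 (-3.26) and MYC (-1.76). Those with a higher response included H2BC12L (3.18), C12orf57 (3.08), TSC22D3 (2.50), ID2 (2.47), KLF6 (2.39), TMEM167B (2.26), PSMB4 (2.23), CYBA (2.20), EIF5A (2.17) and IRF4 (2.13).

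Among opposite responses, the difference was -2.82 for KANK2, -2.36 for FAM76A, -2.34 for TSPAN13, -2.10 for CABLES2, -1.78 for LIG4, -1.73 for SLC5A3 and -1.65 for PCGF5. In the other direction it was 2.01 for NFIL3, 1.80 for CSNK1E, 1.5 for RSBN1, 1.39 for SUPV3L1, 1.38 for FEM1B, 1.20 for MRPL54, 1.15 for CENPH and 1.09 for ANKRD13C.

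The array controls were kept out of the gene tests other than to scale arrays in 1 alternative, and read higher on treated than on untreated OPM1-labelled arrays. The poly-A control probe sets changed by 2.11 on the log2 scale with Zalypsis in OPM1-labelled cells, and the 28S rRNA probe set by 3.12.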

How the results depend on the processing

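Of 115 named genes, 64 kept direction and call in each alternative run, and 29 had a reversed value in at least 1. On the poly-A scale the reversed differences were HEXIM1 -1.98, SC5D -1.98, UBE2E2 -1.24, CST3 -1.24, POLA1 -1.23, TOB1 -1.21, TMEM135 -1.13, RSRC1 -1.03, HLA-E -1.01, FCHSD2 -1.0, HLA-DRA -0.77, BTG1 -0.74, ANKRD13C -0.73, TAF10 -0.70, MRPL54 -0.68, CENPH -0.64, ATF4 -0.63, SUPV3L1 -0.62, FEM1B -0.59, CEBPB -0.43, UBE2C -0.38, RSBN1 -0.32, GALNT10 -0.21, MRPL44 -0.13, SESN2 -0.05 and CSNK1E -0.03. That scaling moved the median of all genes tested to -1.72, as the poly-A controls read higher on treated than on untreated OPM1-labelled arrays. Differences not called on the deposited scale were called there for PMAIP1, RUSC1, E2F8, FTO, PARN (-1.27), MAP3K5 (-1.20), COG5 (-1.16) and STK3 (-1.15). Without shared probe sets TSC22D3 was -0.29, ANKRD13C -0.15 and SMC3 0.10, FCHSD2 gained a call at 0.46, and as means of probe sets TOB1 was -0.37 and SLC25A51 0.10. Named genes read by shared probe sets alone, such as CDKN1A, ID3, H2BC12L, C12orf57 and EIF5A, gave no value in that alternative. Poly-A scaling called 6362 differences (main 3660) and 1107 MM1S responses (main 2780). The methods' rule of more than 2-fold, with no test, passed 1807 differences (against 21.2% of all genes tested), 703 MM1S and 2721 OPM1-labelled responses and 2 opposite responses. Opposite responses (main 157) numbered 240 with quantile normalization and 100 with a control signal of at least 200. Leaving out 1 array at a time gave 3151 to 3638 differences, 1919 to 2946 MM1S calls, 4514 to 5104 OPM1-labelled calls and 48 to 180 opposite responses. Arrays of the same number share only that number (correlation of deviations 0.212 in MM1S and 0.209 in OPM1-labelled cells). With the replicate block, 4308 differences (against 53.5% of all genes tested), 3580 and 5410 responses and 304 opposite responses were called. No share over all genes tested was taken for the response and opposite counts of these alternatives. Apart from the MM1S count under poly-A scaling, the cause of these changes was not tested.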
